A study of Homo sapiens with 6 samples.

Results

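The zinc finger clusters of human chromosome 19 were defined as 6 windows of the hg19 genome: 19p13.2 (11.6 to 12.8 Mb), 19p12 (19.7 to 24.4 Mb), 19q13.12 (36.8 to 38.4 Mb), 19q13.31 (44.2 to 45 Mb), 19q13.4 (52.3 to 54 Mb) and a distal window (57 to 59.1 Mb). Their members are all ChIP-seq peaks that overlap a window by at least 1 bp, chosen by position and not by any measured value. The windows span 12.1 Mb and hold 1275 of the 148837 peaks listed on chromosomes 1 to 22 and X. Of these members, 236 are H3K27ac peaks of the H69 line, 253 are H3K27ac peaks of H69M, 334 are H3K27me3 peaks of H69 and 452 are H3K27me3 peaks of H69M. All positions below are 1-based on chromosome 19 of hg19.

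Most genes of these clusters encode C2H2 zinc finger proteins of the KRAB family, transcription factors that bind DNA through arrays of zinc fingers and recruit the co-repressor TRIM28. Many of them bind and silence transposable elements, as ZNF91 and ZNF93 of 19p12 do for SVA and LINE-1 elements. The clusters grew by tandem duplication, so neighbouring genes are alike in sequence and each has its own promoter. The bodies of zinc finger genes are best known for H3K9me3, which was not profiled here. H3K27ac marks active promoters and enhancers. H3K27me3, written by Polycomb repressive complex 2 (PRC2), marks silenced chromatin, and a residue cannot carry both marks at once.

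The libraries come from NCI-H69 (H69), an established small cell lung cancer line, and from H69M, a line derived from it. Whether H69M is a single clone is not given in the sources used here. For each line there is 1 H3K27ac library (antibody ab4729), 1 H3K27me3 library (clone C36B1) and 1 input library. The input was left out here. Each group thus holds 1 library, so no difference between the lines has a replicate check and no p-value was computed. Intervals are exact 95% binomial intervals and cover counting error only. The lists give a position and a score per peak but no read counts, so depth is unknown; how far depth or enrichment sets the number and width of peaks was not tested. Over chromosomes 1 to 22 and X the lists held 1.34 times as many H3K27ac peaks and 1.75 times as many H3K27me3 peaks in H69M as in H69, and values in the clusters are read beside these ratios.

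In RefSeq on GRCh38.p14, 268 of 565 protein-coding genes named as zinc finger genes of these families (47.4%) lie on chromosome 19. That gene table is on another build than the peaks, so peaks are not tied to genes, and only names and gene order were taken from it. In gene order, zinc finger genes run from ZNF627 to ZNF791 with 24 members and from ZNF101 to ZNF254 with 37, the runs known from 19p13.2 and 19p12. Further runs reach from ZNF565 to ZNF573 (29 genes, 19q13.12), from ZNF283 to ZNF180 (20 genes, 19q13.31), from ZNF577 to ZNF331 (40 genes, 19q13.4) and from ZNF787 to MZF1 (67 genes, around the distal window). The distal run includes the imprinted gene PEG3, the TRIM28 gene itself lies near its end, and other genes are interspersed.

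The first question was how the active mark lay over the clusters and whether it differed between the lines. H3K27ac formed a series of single peaks at nearly the same places in both lines. The median distance from the start of a peak to the start of the next was 31.8 kb in H69 and 30.6 kb in H69M. H69 listed 29 peaks in 19p13.2, 49 in 19p12, 28 in 19q13.12, 19 in 19q13.31, 45 in 19q13.4 and 66 in the distal window, and H69M listed 37, 52, 30, 25, 45 and 64. The ratio of H69M to H69 peaks was 1.07 over all clusters (95% interval 0.894 to 1.29), beside 1.05 for the rest of chromosome 19 (0.976 to 1.13) and 1.35 for the other chromosomes (1.33 to 1.37). In the distal window H69 listed more peaks than H69M, and in 19q13.4 the lines listed equal numbers. In both windows some neighbouring H69 peaks lay under the same H69M peak, which lowers the H69M count. Peaks with no overlapping peak in the other line numbered 1 in H69 and 4 in H69M in the distal window. In 19q13.4 they numbered 2 and 6.

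**Figure D1:**
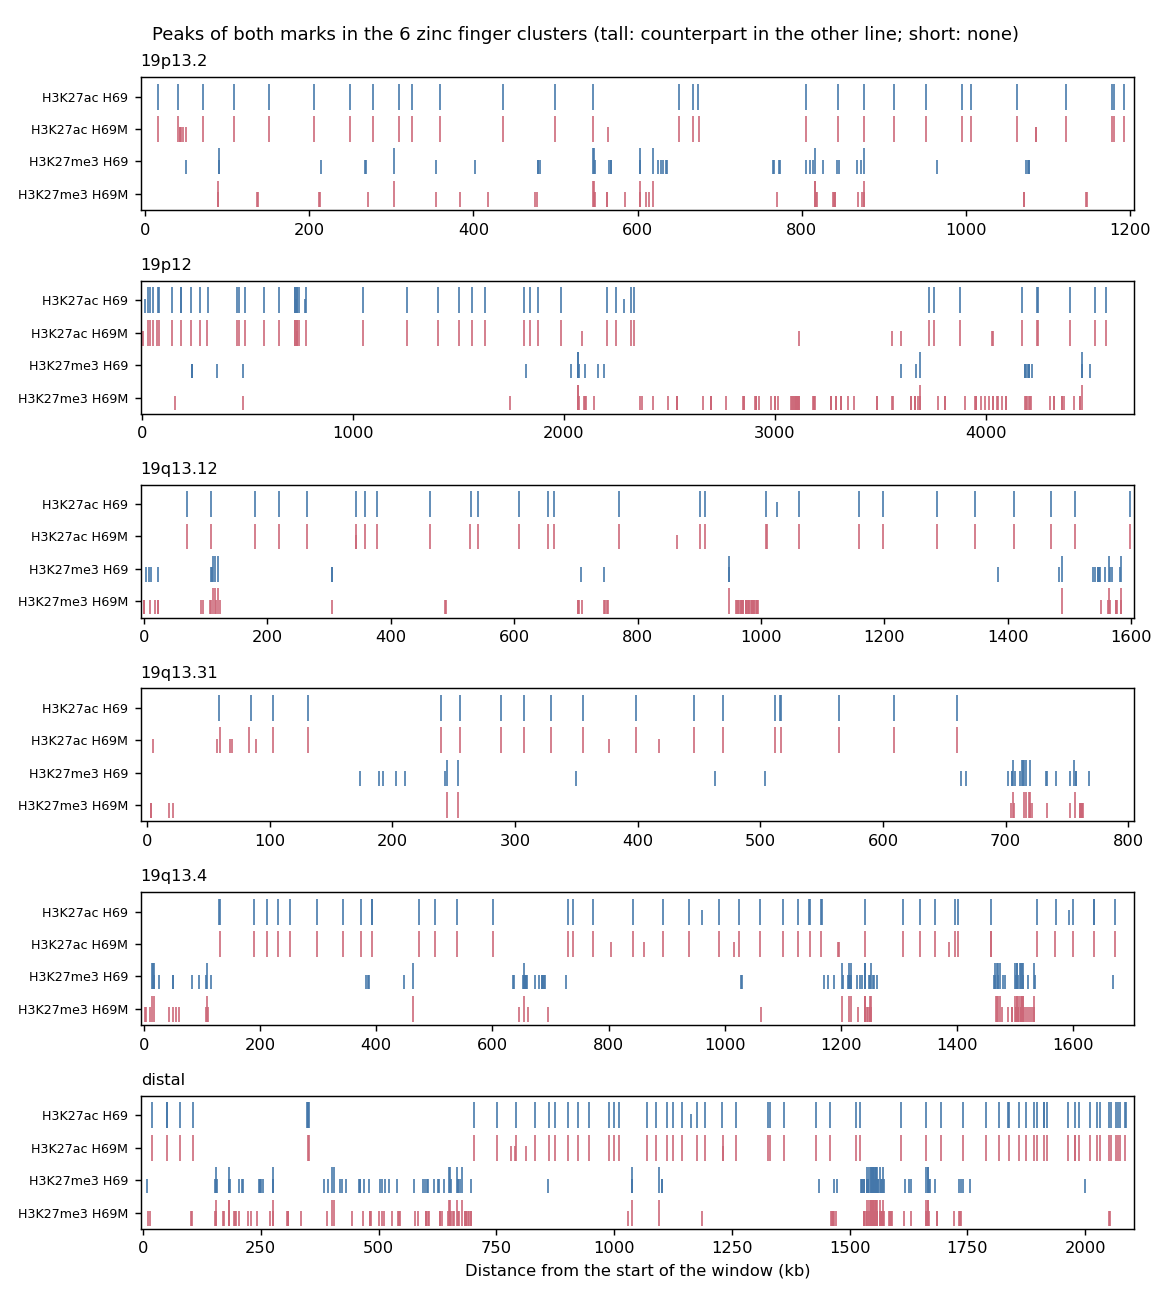
Position of each of the 1275 cluster peaks, as distance in kb from the start of its window, with 1 row per mark and line (blue, H69; red, H69M). Tall ticks have an overlapping peak of the same mark in the other line and short ticks have none; H3K27ac ticks are mostly tall and line up between the lines, whereas H3K27me3 ticks are mostly short.

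The clusters were poorer in H3K27ac peaks than the rest of chromosome 19 but the peaks were strong. They held 19.5 peaks per Mb in H69 and 20.9 in H69M, against 33.1 and 34.7 per Mb in the rest of chromosome 19. Density on the other chromosomes was not computed, so the clusters are compared with their own chromosome only. The density was lowest in 19p12, with 10.4 and 11.1 peaks per Mb, and the highest values were 31.4 in the distal window in H69 and 31.3 in 19q13.31 in H69M. The median score of a cluster peak was 715 in H69 and 915 in H69M, against 352 and 541 in the rest of chromosome 19 and 208 and 231 on the other chromosomes. A score of 1000 or more was reached by 88 of 236 cluster peaks in H69 (37.3%) and 119 of 253 in H69M (47.04%), against 33.9% and 39.8% in the rest of chromosome 19 and 24.3% and 25.9% on the other chromosomes. Lower shares were found in 19q13.31, where 1 of 19 peaks in H69 and 6 of 25 in H69M reached it, and in 19q13.4 in H69, with 8 of 45.

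The strongest peaks sat at the same places in both lines. Every cluster had at least 1 H69 peak with a score of 3100, a value at which scores pile up although some are higher. In each cluster the highest scoring peak of each line overlapped a peak of the other line. In 19p13.2 the widest peak with a score of 3100 ran from 12034588 to 12036808 in H69 and from 12034602 to 12036895 in H69M. In 19q13.12 the H69 peak from 37957118 to 37960831, 3714 bp wide, lay opposite an H69M peak of 3960 bp that also had a score of 3100. In 19p12 the highest score of H69M, 3225, belonged to the peak from 24269393 to 24271122, near the centromeric end, whose H69 counterpart had a score of 1927.

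H3K27ac peaks without a counterpart were few. In H69, 8 of 236 cluster peaks had no overlapping H69M peak, against a background of 22.5% of all H69 H3K27ac peaks, so 96.6% had one (93.4 to 98.5). In H69M, 35 of 253 had no H69 counterpart, against a background of 48.4%, so 86.2% had one (81.3 to 90.2). In 19p13.2 and 19q13.31 all 29 and all 19 H69 peaks had a counterpart. The 8 peaks listed only in H69 were weak, with scores from 51.4 to 233, and the strongest lay in 19q13.12 from 37825244 to 37826093. The others with a score above 100 lay at 58162709 to 58163556 in the distal window (134) and at 21983426 to 21984052 in 19p12 (104).

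High scores and sharing go together, so the shares were compared within classes of score. Among H69 peaks with a score of 100 to 300, 35 of 38 cluster peaks had a counterpart (92.1%, 78.6 to 98.3), against 74.6% (69.3 to 79.4) in the rest of chromosome 19 and 75.8% (74.9 to 76.7) on other chromosomes. Among H69M peaks with a score of 300 to 1000, 73 of 80 cluster peaks had one (91.3%, 82.8 to 96.4), against 73.3% (67.9 to 78.3) and 62.2% (61.2 to 63.2). Under a score of 100 the cluster interval was wide and reached into that of the rest of chromosome 19 in both lines, with 16 of 21 in H69 and 11 of 24 in H69M. The same held for H69M peaks with a score of 100 to 300, with 17 of 30 in the clusters (56.7%, 37.4 to 74.5) against 52.4% in the rest of the chromosome. At a score of 1000 or more nearly every peak was shared in all places, 88 of 88 cluster peaks in H69 and 117 of 119 in H69M. These intervals treat peaks as independent, and no test of the difference between clusters and other regions was made.

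**Figure D2:**
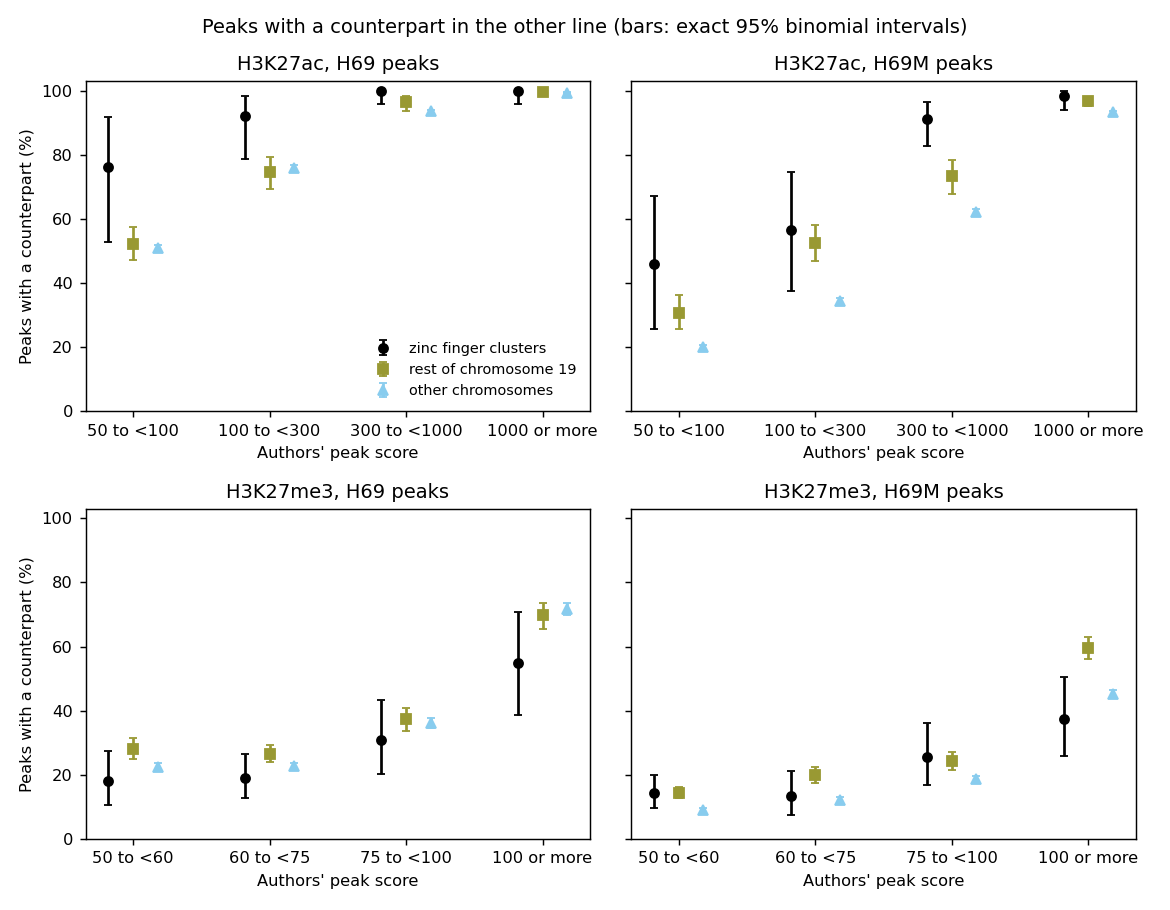
Percent of peaks that overlap a peak of the same mark in the other line (vertical axis), by class of the authors' score (horizontal axis), for the clusters, the rest of chromosome 19 and the other chromosomes, with exact 95% binomial intervals. For H3K27ac the cluster points lie highest in every class, though with overlapping intervals in some. For H3K27me3 with a score of 100 or more the cluster points lie lowest in both lines. In H69M the cluster interval of that class holds the value of the other chromosomes.

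Of the 35 H69M H3K27ac peaks without a counterpart, 5 lay close together in 19p13.2 and 5 in the first 100 kb of 19q13.31. From 11642197 to 11652397 in 19p13.2, H69M listed 5 peaks over 7.54 kb and H69 listed none. The strongest of them, from 11648580 to 11652397, was 3818 bp wide with a score of 1789 and was the highest scoring H69M-only peak of all clusters. A weak H69 H3K27me3 peak with a score of 57.5, from 11650142 to 11650319, lay under it. In the bin of 100 kb from 11.6 to 11.7 Mb, 3 H69 peaks covered 4.96 kb and 8 H69M peaks covered 13.7 kb. In gene order CNN1, which encodes the smooth muscle protein calponin, ELOF1 and ACP5 come just before ZNF627, the start of the zinc finger run of 19p13.2. Which of these genes the peaks belong to was not determined.

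The largest surplus lay at the start of 19q13.31. In the bin from 44.2 to 44.3 Mb, 2 H69 peaks covered 3.25 kb and 7 H69M peaks covered 16.02 kb. Its H69M-only peaks included the one from 44204046 to 44206244, with a score of 1369, and the one from 44268558 to 44270250, with a score of 429. Both H69 peaks of the bin were wider in H69M. The peak from 44257776 to 44260487 went from 2712 to 5432 bp and had a score of 3100 in both lines, and the peak from 44284796 to 44285331 went from 536 bp and a score of 62.4 to 4225 bp and a score of 2209. In gene order IRGC, SMG9, KCNN4, a calcium-activated potassium channel gene, and LYPD5 precede ZNF283, the start of this zinc finger run. H69M held only 2 H3K27me3 peaks in the span from 44204046 to 44289792 and H69 held none.

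The third largest surplus was in 19q13.4 from 53.4 to 53.5 Mb, where each line had 6 peaks, which covered 5.27 kb (H69) and 9.34 kb (H69M). Among them was the H69M-only peak from 53494069 to 53495080 (score 470). In the direction of H69 the 3 largest differences were small. The bin starting at 21.9 Mb had 3.44 kb covered in H69 against 2.73 kb, the bin starting at 20.4 Mb had 7.15 against 6.55 kb, and the bin starting at 59 Mb had 23.3 against 22.9 kb. H3K27ac covered at least 2 times the length in H69M in 12 of the 95 cluster bins with a peak, against a background of 41.1% of bins, and at least 2 times the length in H69 in 0 of 95, against 8.63%. In the rest of chromosome 19 these shares were 18.8% and 3.70%.

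Most peaks present in both lines were wider in H69M, as over all peaks. Of the 228 cluster peaks of H69 with a counterpart, 188 were overlapped by H69M peaks of a greater summed width (82.5%), against 82.4% of all such H69 peaks, with a median ratio of 1.20, against 1.24 in the rest of chromosome 19 and 1.34 on other chromosomes. At least 2-fold wider were 22 of 228 (9.65%), against a background of 27.8%, and 0 were at least 2-fold narrower. For 16 of the 22, a neighbouring H69 peak lies under the same H69M peak or peaks, as at 52692067 to 52694570 in 19q13.4. With all H69 peaks at the site summed, a comparison added after the data were seen, 6 of the 22 stayed at least 2-fold wider: 3 in 19q13.31, 2 in 19q13.4 and 1 in 19p12. Besides the pair at 44.2 Mb these include the 19q13.31 peak from 44669103 to 44669752, which had 650 bp in H69 and 1770 bp in H69M. The sum was not made for peaks outside the clusters, so the 27.8% is not a background for these 6. At the distal site of 58837260 the 2 H69 peaks summed to 1663 bp, against 2215 bp in H69M. In covered length H3K27ac went from 303 to 387 kb over all clusters, a ratio of 1.28, beside 1.26 for the rest of chromosome 19 and 1.61 for other chromosomes. By cluster this ratio was 1.13 in the distal window, 1.18 in 19q13.12, 1.23 in 19p12, 1.29 in 19q13.4, 1.42 in 19p13.2 and 2.01 in 19q13.31. In 19q13.31, which went from 19.7 to 39.6 kb, the border bin at 44.2 Mb alone added 12.8 kb. In 19p13.2, which went from 40.2 to 57.0 kb, the border bin at 11.6 Mb added 8.75 kb. With windows cut by 100 kb the ratio of peak numbers went from 1.32 to 1.06 in 19q13.31 and from 1.28 to 1.14 in 19p13.2.

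**Figure D3:**
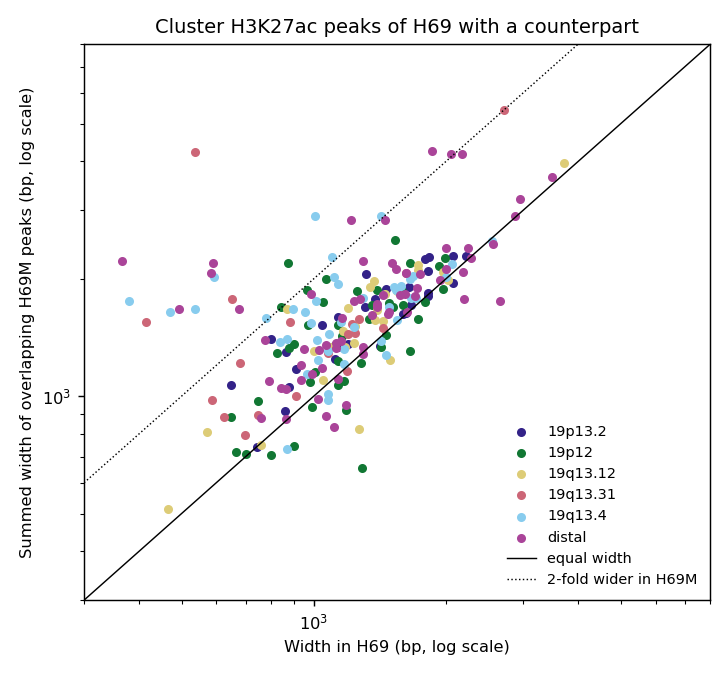
Width of each of the 228 cluster H3K27ac peaks of H69 that have a counterpart (horizontal log axis, bp) against the summed width of the H69M peaks that overlap it (vertical log axis, bp), coloured by cluster. Most points lie a little above the solid line of equal width, and 22 lie on or above the dotted 2-fold line, of which 16 share their H69M peaks with a neighbouring H69 peak; 1 of the other 6 is the 19q13.31 peak that went from 536 to 4225 bp.

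The second question was where the silencing mark lay in the clusters and whether it differed. H3K27me3 was thinner here than elsewhere on chromosome 19, while the size of its peaks was close to that over all peaks. The clusters held 27.6 peaks per Mb in H69 and 37.4 in H69M, against 72.5 and 104 per Mb in the rest of the chromosome. For this mark too, density on the other chromosomes was not computed, so whether the clusters are thinner than the genome is not known. They take up 21.7% of the mapped span of chromosome 19 but held 9.52% of its H3K27me3 peaks in H69 (8.57 to 10.5) and 9.03% in H69M (8.25 to 9.86). For H3K27ac these shares were 14.01% and 14.3%. Median width was 186 bp in H69 and 149 bp in H69M, against 185 and 156 bp over all peaks, and the median score was 67.02 and 62.9, against 66.9 and 65.0. Of these peaks, 40 of 334 peaks in H69 (11.98%) and 64 of 452 in H69M (14.2%) had a score of 100 or more, against 13.8% and 18.1% over all peaks.

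**Figure D4:**
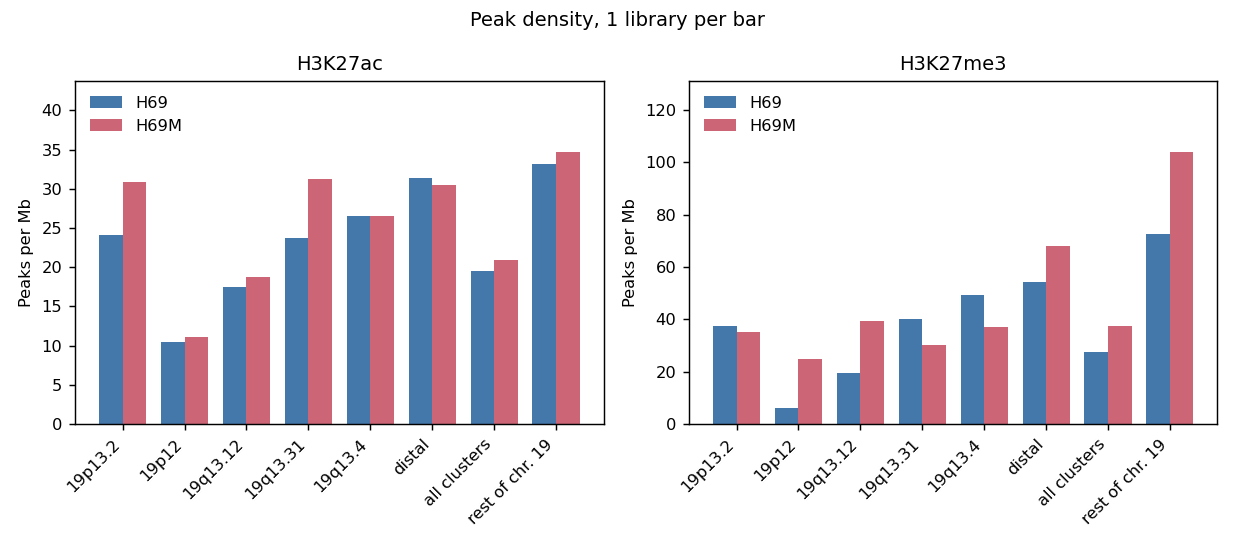
Peaks per Mb (vertical axis) of H3K27ac and H3K27me3 in each cluster, over all clusters and in the rest of chromosome 19, with 1 library per bar and no error bars. The bars for all clusters are lower than those for the rest of the chromosome for both marks, and 19p12 is lowest for H3K27ac and, in both lines, for H3K27me3.

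In the full lists the H69M to H69 ratio of peak numbers was above 1 in some clusters and below 1 in others. The intervals of those below 1 all reached above 1. H69M listed 452 H3K27me3 peaks against 334 in H69, a ratio of 1.35 (1.17 to 1.56), below the 1.43 of the rest of chromosome 19 (1.37 to 1.5003) and the 1.81 of other chromosomes (1.78 to 1.85). When the H69M list was cut to the number of peaks of the H69 list, strongest first, the ratio in the clusters turned to 0.722 (0.609 to 0.854). With a score of 100 or more in both lists it was 1.60 (1.06 to 2.44), from 40 peaks in H69 and 64 in H69M. At that score H69 listed 525 and H69M 839 peaks in the rest of chromosome 19, and 2987 and 6847 over all peaks. The cut to equal numbers makes the full lists equal by construction. The direction in the clusters thus depends on how the lists are trimmed, and trimming also moves the ratio over all peaks. By cluster the ratio was 4.18 in 19p12 (28 and 117 peaks, 2.75 to 6.56) and 2.03 in 19q13.12 (31 and 63 peaks, 1.30 to 3.23). The interval of 19q13.12 holds the 1.81 of other chromosomes, and that of 19p12 lies above it. The ratio was 1.25 in the distal window (114 and 143, 0.974 to 1.62), 0.933 in 19p13.2 (45 and 42, 0.598 to 1.45) and 0.75 in both 19q13.31 (32 and 24, 0.423 to 1.31) and 19q13.4 (84 and 63, 0.532 to 1.05). With equal numbers of peaks the ratio stayed above 1 in 19p12 (2.0) and 19q13.12 (1.26, 0.765 to 2.09) and was 0.675 in the distal window, 0.489 in 19p13.2, 0.469 in 19q13.31 and 0.381 in 19q13.4. With scores of 100 or more the ratio of 19q13.31 turned to 1.75 (0.445 to 8.15), and that of 19q13.4 was 1.0.

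In covered length H3K27me3 went from 70.3 kb in H69 to 90.5 kb in H69M, a ratio of 1.29. At least 2 times the length was covered in H69M in 31 of the 87 cluster bins with a peak, or 35.6%, against a background of 47.1%, and in H69 in 29 of 87, or 33.3%, against a background of 26.6%. In the rest of chromosome 19 these shares were 24.9% and 21.1%. Of the 31 bins, 21 lay in 19p12. In 19q13.4, 0 of 12 bins had such a surplus in H69M and 7 of 12 had it in H69.

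19p12 contains ZNF91, ZNF43 and ZNF208 among its genes and ends near the centromere. Its H3K27me3 difference lay in its centromeric part. From 22 to 23 Mb H69 listed no H3K27me3 peak and H69M listed 49 over 7.45 kb, and from 23 to 24 Mb the numbers were 11 and 47. From 19.7 to 21 Mb both lines were nearly bare, with 5 peaks in H69 and 2 in H69M, and from 21 to 22 Mb each had 9. The longest stretch of 19p12 without an H69 peak, from 21892559 to 23300161, held 59 H69M peaks with a median width of 129 bp and a median score of 59.5, of which 7 had a score of 100 or more. With equal numbers of peaks 27 of the 59 were left. The strongest H69M peak without a counterpart in 19p12 lay inside it, at 22610683 to 22611103, with a score of 256, and the nearest H3K27ac peak of H69M was 205 kb away.

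The same stretch is poor in H3K27ac. In H69 no H3K27ac peak lay between 22034960 and 23432146 (1397 kb), and in H69M the longest stretch without one was 781 kb, from 22035200 to 22816397. H69M listed 3 H3K27ac peaks inside the H69 stretch, and 2 of these, at 22816398 to 22817792 (score 207) and 23257682 to 23258684 (576), overlapped a weak H3K27me3 peak of H69M. The largest stretch of chromosome 19 without any peak, 3.15 Mb long, starts at 24631571. The H3K27me3 ratio of 19p12 without the peaks of both lines within 2 Mb of it was 2.21 (1.14 to 4.50). This interval holds the 1.81 of other chromosomes. Neither mappability nor the input was examined.

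19q13.12 held a run of H3K27me3 that was listed only in H69M. From 37759902 to 37795376, over 35.5 kb, H69M had 26 peaks covering 13.3 kb and H69 had none. The highest score of the run, 301, belonged to the peak from 37779714 to 37780923, which was also the strongest H3K27me3 peak of the cluster. Of the 26 peaks 5 had a score of 100 or more. With equal numbers of peaks 18 were left, beside 21638 of 37853 over all H69M peaks of this mark. No H3K27ac peak of either line lay in the run, and the nearest H69M H3K27ac peak was 26.7 kb from the strongest peak. The bin from 37.7 to 37.8 Mb, with 2 peaks over 0.365 kb in H69 and 27 over 13.3 kb in H69M, had the largest H3K27me3 difference of all cluster bins. Outside the run the bins went both ways. From 37.5 to 37.6 Mb, 2 H69 peaks covered 0.467 kb and 8 H69M peaks 1.30 kb, and from 36.8 to 36.9 Mb 4 H69 peaks covered 0.661 kb and 8 H69M peaks 1.60 kb. From 38.3 to 38.4 Mb H69 had 13 peaks over 2.61 kb and H69M 9 over 1.37 kb.

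19q13.31, home of the ZNF221 to ZNF235 genes, held the strongest H3K27me3 peak of the clusters. In H69M it ran from 44913375 to 44916546, 3172 bp wide with a score of 1122, and it was the only cluster peak of this mark with a score of 1000 or more. H69 listed 4 separate small peaks under it, with scores of 83.3, 56.4, 57.1 and 118. The run around it, from 44901746 to 44921906, held 11 peaks over 3.07 kb in H69 and 9 over 5.49 kb in H69M. A neighbouring run from 44952336 to 44968256 held 5 peaks in H69 and 8 in H69M, including the strongest H69M-only peak of the cluster (44961134 to 44961773, score 225) and the strongest H69-only peak (44952336 to 44952707, score 138). From 44.3 to 44.9 Mb H69 listed 13 peaks and H69M 2, and no H69M peak lay between 44453312 and 44904137. The cluster thus had fewer peaks in H69M but a greater covered length, 9.18 kb against 7.30 kb.

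19q13.4, which holds ZNF83, ZNF28 and ZNF816, had more H3K27me3 peaks in H69, 84 against 63, though with a score of 100 or more both lines had 8. In the bin from 52.9 to 53 Mb, 17 H69 peaks covered 3.79 kb and 4 H69M peaks covered 0.696 kb, the largest difference in that direction. It contains the strongest H69 peak of the cluster, from 52956524 to 52956864 with a score of 176, which had no counterpart in H69M. From 53.5 to 53.6 Mb, 21 H69 peaks covered 4.28 kb and 14 H69M peaks covered 2.66 kb. The longest run, from 53763407 to 53833485, went the other way in number, with 22 peaks over 4.93 kb in H69 and 31 over 5.26 kb in H69M. It includes the strongest H69M peak of the cluster, from 53812545 to 53812967 (score 155; 85.4 in H69).

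19p13.2 carried the strongest H69 peak of the clusters, from 12415981 to 12416630 with a score of 250.5, whose H69M counterparts reached only 71.2. Its strongest H69-only peak lay at 12471430 to 12471804 (score 166). Covered length was 10.2 kb in H69 and 6.89 kb in H69M. The strongest H69M peak, from 12146026 to 12146411 (score 183), lay under an H3K27ac peak of both lines.

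The distal window, with PEG3, ZNF154, ZNF671 and ZNF274 among its genes, held 114 H3K27me3 peaks in H69 and 143 in H69M, with 23.4 and 24.97 kb covered. Its strongest H69 peak ran from 57182784 to 57183272 (score 236), and its strongest H69M peak from 58038755 to 58039206 (score 282). From 58524625 to 58573011 lay the densest run of all clusters, with 35 peaks over 7.83 kb in H69 and 41 over 8.36 kb in H69M, and in each line 18 of them had a counterpart. With equal numbers of peaks H69M kept 24 of the 41 there, beside 21638 of 37853 over all its peaks of this mark. From 57618264 to 57697455 H69 listed 13 peaks and H69M 23. This run lies in a stretch of 349.5 kb, from 57352780 to 57702325, that held no H3K27ac peak in H69, and in H69M a stretch with nearly the same ends (57352719 to 57702145) held none. Inside it H69 had 35 H3K27me3 peaks with a highest score of 95.2 and H69M had 45 with a highest score of 174. In gene order USP29, ZIM3 and DUXA lie between PEG3 and ZNF264, but their positions on hg19 were not at hand.

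**Figure D5:**
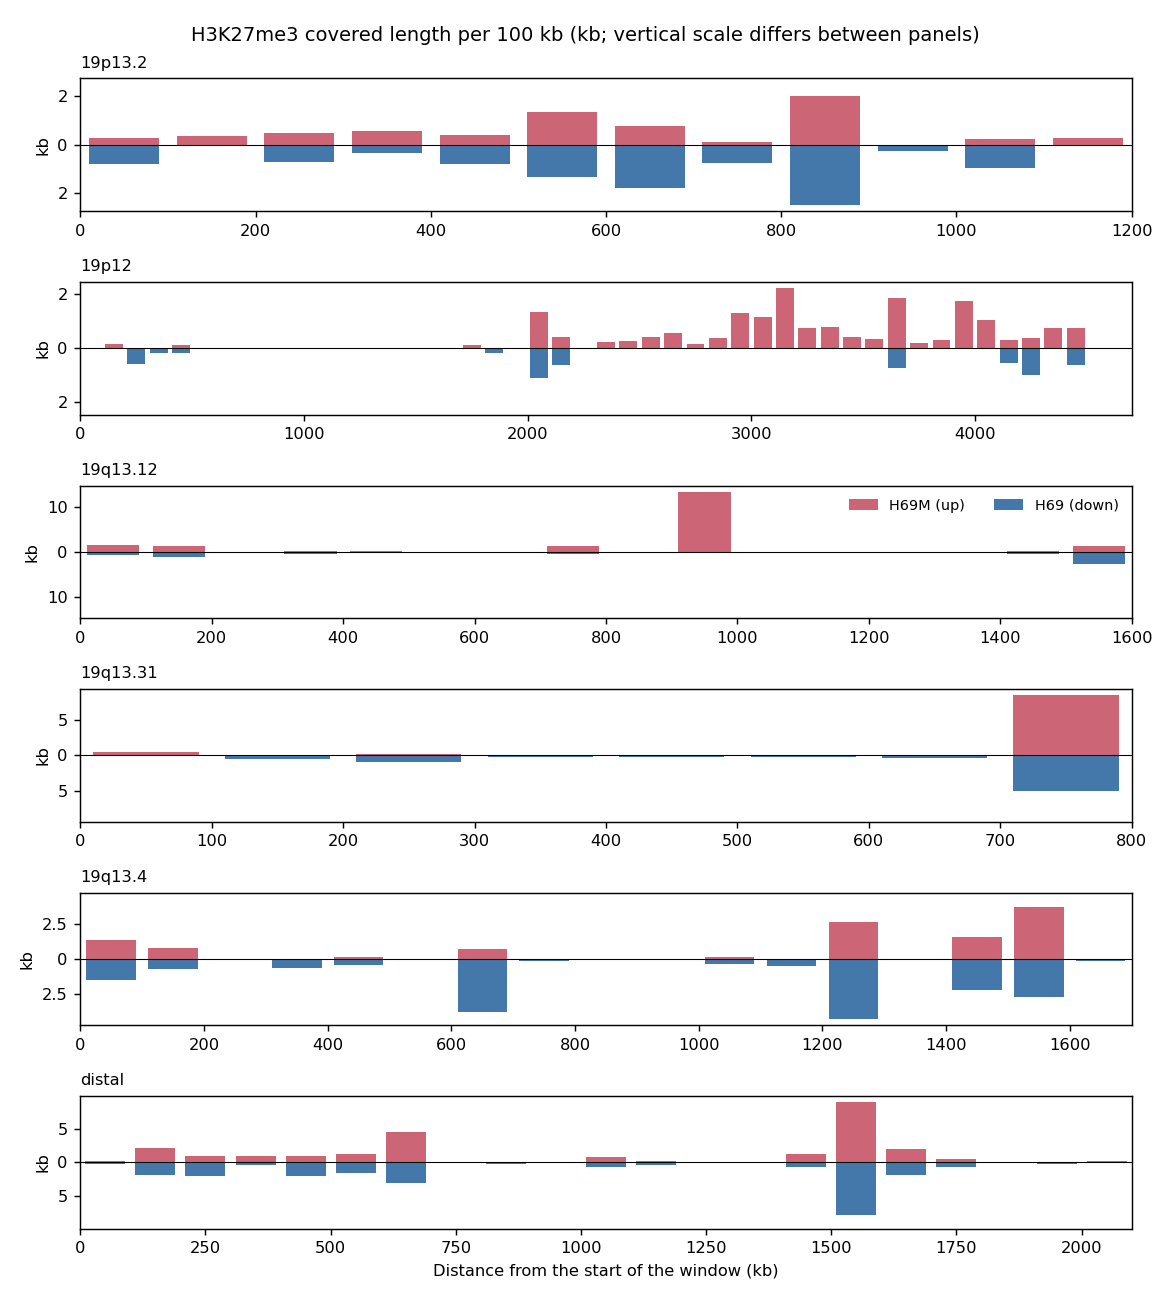
Length covered by H3K27me3 peaks in each 100 kb bin (kb) of the 6 clusters, H69M upward and H69 downward, against the distance from the start of the window in kb; the vertical scale differs between panels. The 19p12 panel shows H69M bars over a long stretch where H69 has none, the 19q13.12 panel a single tall H69M bar of 13.3 kb, and the distal panel its tallest bars of both lines in the same bin.

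As over all peaks, most H3K27me3 peaks of the clusters overlapped no peak of this mark in the other line. The share with a counterpart over all peaks was 32.6% in H69 and 18.9% in H69M, the latter close to that of the clusters. These peaks are narrow and mostly of low score, so a missing overlap need not mean that the mark lies elsewhere. In H69, 249 of 334 cluster peaks had no H69M counterpart, against a background of 67.4% of all H69 H3K27me3 peaks, so 25.4% had one (20.9 to 30.5). In H69M, 364 of 452 had none, against a background of 81.1%, so 19.5% had one (15.9 to 23.4). The share with a counterpart was lowest in 19p12, with 4 of 28 in H69 and 4 of 117 in H69M, and highest in 19q13.4, with 25 of 84 and 27 of 63. At scores from 100 upward, 22 of 40 cluster peaks of H69 (55.0%, 38.5 to 70.7) and 24 of 64 of H69M (37.5%, 25.7 to 50.5) had a counterpart. In the rest of chromosome 19 these shares were 69.7% (65.6 to 73.6) and 59.5% (56.1 to 62.8). On other chromosomes they were 71.7% (69.9 to 73.5) in H69 and 45.2% (44.0 to 46.5) in H69M, the latter inside the cluster interval. In the run at 58.5 Mb, 17 of the 35 H69 peaks had no counterpart although the covered lengths of the lines were close.

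Many H3K27me3 peaks lay in dense runs. Runs of at least 10 H3K27me3 peaks of both lines together, linked when less than 10 kb apart, were defined after the layout had been seen, so a high share of peaks in a small length follows from their definition. There were 17 runs, which take up 624 kb or 5.15% of the windows. They held 171 of 334 peaks in H69 (51.2%) and 223 of 452 in H69M (49.3%). Of the 17 runs, 2 had no H69 peak, the one in 19q13.12 at 37.8 Mb and one in 19p12 from 22778899 to 22817338, and every run had H69M peaks. An H3K27ac peak touched 3 of these runs in H69 and 4 in H69M. Over all clusters there were 19.5 and 20.9 H3K27ac peaks per Mb, and the number in other stretches of such length was not computed.

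The last comparison asked whether both marks met in the clusters. Of the 121 bins of 100 kb, 51 held both marks in H69 and 50 in H69M, 38 and 45 held only H3K27ac, 11 and 21 only H3K27me3, and 21 and 5 neither. Of the 21 empty bins of H69, 20 lay in 19p12. The median distance from an H3K27me3 peak to the nearest H3K27ac peak was 29.0 kb in H69 and 31.1 kb in H69M, shorter than the 45.4 and 42.2 kb of the rest of chromosome 19 and the 50.9 and 54.01 kb over all peaks. Within 5 kb of an H3K27ac peak lay 42 of 334 H3K27me3 peaks in H69 (12.6%, 9.22 to 16.6) and 52 of 452 in H69M (11.5%, 8.71 to 14.8), against 6.90% and 8.35% in the rest of chromosome 19 and 8.29% and 10.3% over all peaks. Measured from an H3K27ac peak to the nearest H3K27me3 peak, the clusters were close to their chromosome. That median was 42.2 kb in H69 and 45.9 kb in H69M, against 38.1 and 47.7 kb in the rest of chromosome 19. Within 5 kb lay 10.2% and 10.7% of cluster H3K27ac peaks, against 10.6% and 12.1% there and 3.30% and 4.04% over all peaks.

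H3K27ac peaks that overlapped an H3K27me3 peak of the same line numbered 7 of 236 in H69 (2.97%, 1.20 to 6.02), against a background of 0.805%. In H69M they numbered 10 of 253 (3.95%, 1.91 to 7.15), against 1.56%. The rest of chromosome 19 had shares of 1.104% in H69 (0.632 to 1.79) and 2.5% in H69M (1.78 to 3.42). This H69M value lies inside the cluster interval, and in H69 the intervals overlap. With equal numbers of peaks the H69M share was 2.17% in the clusters (0.710 to 5.0), against 1.61% in the rest of the chromosome. With scores of 100 or more in both lists 2 of 215 and 3 of 229 were left (0.930% and 1.31%, against 0.184% and 0.593% over all peaks). When 50% of the H3K27ac peak had to be overlapped, 1 and 2 were left (0.424% and 0.791%, against 0.105% and 0.264%). With so few peaks the intervals are wide, and no test of the difference was made. Of the sites with both marks, 5 were listed with both in each line. In 19p13.2 they lay at 12145889 to 12146747 (H3K27ac score 316 in H69 and 346 in H69M, highest H3K27me3 score 156 and 183) and at 12475731 to 12476610 (179 and 340, 57.4 and 112). The 19q13.12 site lay at 36908507 to 36910001 (1054 and 944, 68.6 and 61.9). The 19q13.4 site lay at 53540466 to 53541332 (107 and 65.3, 93.6 and 105), and the distal site at 58661435 to 58662500 (671 and 324, 112 and 108). At these 5 sites the H3K27ac score was above the H3K27me3 score in 4 in both lines, and in the 19q13.4 site in H69 only. Scores of lists for different antibodies may not mean the same.

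In H69M, 3 of the other sites lay in 19p12, where H69 had none with both marks, and none of the 3 had a peak of either mark in H69. Of the 334 H3K27me3 peaks of H69, 13 overlapped an H3K27ac peak of H69M, against a background of 4.63%, and 10 of these lay under an H3K27ac peak of H69 as well. The other 3, with scores of 57.5, 58.7 and 66.2, lay at 11650142 in 19p13.2, 12444600 in 19p13.2 and 23300162 in 19p12. In the reverse direction 8 of the 452 H69M peaks overlapped an H3K27ac peak of H69, against a background of 2.78%, and all 8 lay under an H69M H3K27ac peak too.

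The windows have fixed borders. In the outer 100 kb inside the borders there were 35 H3K27ac peaks in H69 and 42 in H69M, and in the 100 kb outside 36 and 38. For H3K27me3 there were 50 and 56 inside and 61 and 108 outside. The last peak of the chromosome ends at 59087934, inside the distal window, so no peak was listed beyond its far border. The totals inside and outside are therefore not like for like: for H3K27ac in H69 the distal window had 14 inside and 2 outside. The H3K27ac surpluses named at 11.6 and 44.2 Mb lie within 100 kb of a border.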

How the data were processed

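H3K27ac and H3K27me3 ChIP-seq peak lists of 1 H69 and 1 H69M library each were used. Per the submitters' processing notes, the build was hg19 and the tools included Bowtie2 and SAMtools 0.1.19. The deposited score of each peak, in lists whose peak names carry the word MACS, starts at about 50 and piles up at 3100. The authors' definition of it, the version of the caller and the use of the input are not stated in the sources at hand.

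Peaks on chromosomes 1 to 22 and X were read with pandas 2.3.3 and numpy 2.4.6. A counterpart is a peak of the same mark in the other line overlapping by 1 bp or more. Intervals are exact (Clopper-Pearson, scipy 1.17.1), ratio intervals the conditional form of them. Overlap functions were tested on simulated data. Named regions were, per mark, line and cluster, the highest scoring peak and the highest scoring peak without counterpart, and per mark the 3 bins of 100 kb with the largest difference in each direction; runs, stretches, sites with both marks and other regions were chosen after their values were seen. Windows, lists and rules were set with earlier results of these data known. With 1 library per group no test was made. No hg19 genome or annotation was used, so the planned promoter and gene body states were not computed and no sequence is printed. Alternatives were equal numbers of peaks, a score of 100 or more, 50% overlap, covered length, windows cut by 100 kb and leaving out 2 Mb beside the peak-free stretch.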

Additional observations from a re-analysis of the deposited data

Results flagged for a closer look

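Contigs assigned to chromosome 19 but not placed on it entered no comparison. They held 4 H3K27me3 peaks in H69 and 7 in H69M, each above the floor of 3 set for flagging, and 0 H3K27ac peaks in both lines.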

How the results depend on the processing

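Of 40 recomputed values of the main results, 24 stayed within the interval of the reported value. With equal numbers of peaks the H3K27me3 ratio of the clusters turned from 1.35 to 0.722, the share of H3K27ac peaks with a counterpart was 93.2% in H69 and 90.4% in H69M, and that of H3K27me3 peaks 18.9% and 24.1%. With scores of 100 or more in both lines the H3K27me3 ratio was 1.60, the H3K27me3 shares were 20.0% and 15.6%, and the share of H3K27ac peaks over H3K27me3 was 0.930% in H69 and 1.31% in H69M. Without the 2 Mb beside the peak-free stretch the H3K27me3 ratio was 1.14 and the H69M share 23.5%. When 50% of a peak had to be overlapped, the H3K27me3 shares were 16.8% and 13.9% and the overlap of the marks 0.424% and 0.791%. The cause of these shifts was not tested, beyond the fewer peaks or stricter overlap that the settings impose. Cutting the windows by 100 kb moved the H3K27me3 ratio to 3.29 in 19q13.12 and to 0.154 in 19q13.31, whose last 100 kb hold most of its peaks. No paired analysis was possible because each group holds 1 library. Depth is unknown, and its part in these values was not tested.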
